A study of Homo sapiens with 14 samples.

Results

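Cells of the human mammary epithelial line MCF-10A that expressed MRTFB dN Y305A, a form of MRTFB unable to bind SRF, were compared with cells that expressed MRTFB dN, which binds SRF. The comparison rests on 4 of the 14 RNA-seq libraries of the series, 2 per group, and on 11634 of its 27543 named loci, those with an FPKM (fragments scaled to transcript length and library size) of at least 1 in at least 2 of the 4 libraries. Genes of the contractile apparatus and of the actin cytoskeleton were lower in the Y305A cells: the smooth muscle actin gene ACTG2 stood at 59843 and 36375 FPKM in the MRTFB dN libraries and at 0.789 and 0.872 FPKM in the Y305A libraries. In the same cells the metallothionein MT2A, the calprotectin gene S100A9, the claudin CLDN4, the plasminogen activators PLAU and PLAT and the chemokine CXCL8 were higher.

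MRTFB, also named MKL2, is a coactivator that monomeric (G-) actin holds in an inactive state and that is released when actin polymerises. Freed MRTF binds the transcription factor SRF on CArG boxes, short DNA elements in front of many genes of the actin cytoskeleton and of muscle, and SRF itself is such a target. YAP is a coactivator of the TEAD factors, whose best known targets in epithelial cells are the matricellular genes CTGF and CYR61, and part of these genes also respond to MRTF.

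All libraries came from MCF-10A, an immortalised breast epithelial line that does not form tumours, harvested 2 days after retroviral infection. The study had 7 groups of 2 libraries. MRTFB dN cannot bind G-actin, and MRTFB dN Y305A cannot bind G-actin or SRF. MRTFB dN dPY cannot bind G-actin or YAP, MRTFB dN Y305A/dPY cannot bind G-actin, SRF or YAP, and the remaining groups expressed hyperactive YAP (YAP 5SA) or an empty Puro vector or an empty Hygro vector. All MRTFB forms were overexpressed in cells that keep their own MRTFB, SRF and YAP, and none of the groups compared lacks these genes. The sources used here do not state whether replicates were separate cultures, so the p-values measure the spread between these libraries.

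The absolute number of reads behind each FPKM is unknown, so no counting error is attached to a value. The 4 libraries had between 10724 and 11471 named loci at 1 FPKM or more. Short RNAs held 45.3% and 37.3% of all FPKM in the MRTFB dN libraries and 60.8% and 55.0% in the Y305A libraries, and the 3 loci of ACTG2, ACTA2 and TAGLN alone held 17.5% and 13.9% of the remaining named FPKM with MRTFB dN against 0.00741% and 0.00694% with Y305A. A rescaling by the median of ratios changed the libraries by factors between 0.998 and 1.02. MRTFB dN dPY replicate 1 was listed at 0 over 3 unbroken stretches of the table, and its values there were treated as missing. In the comparison of Y305A with MRTFB dN, that library enters only the estimate of the spread. Of the tested loci, 1627 lie in those stretches. Y305A replicate 1 was listed at 0 for 2 genes at 10 FPKM or more in the other 3 libraries, KRT8 and KRT18, and neither was called.

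Each locus was tested with limma on log2(FPKM + 1) with the replicate number as a pair, and a locus was said to fall or rise in the Y305A cells at an adjusted p (Benjamini-Hochberg over the 11634 loci, two-sided) under 0.05. The log2 differences below are Y305A minus MRTFB dN on that scale, with the standard error of the fit. They understate the change of genes near 1 FPKM. At this threshold 41.6% of the loci changed: 2479 (21.3%) fell and 2366 (20.3%) rose, and at an unadjusted p under 0.05 the number was 5927. Counts of falls and rises in the gene lists below are to be read beside the 21.3% and 20.3% of all loci. The median difference over all tested loci was 0.03, on values already scaled per library. Falls reached further than rises. Among the loci that fell, the median was -1.11, 530 differed by at least 2 and 119 by at least 4. Among those that rose, the median was 0.88, 245 differed by at least 2 and 35 by at least 4. The 2 Y305A values did not overlap the 2 MRTFB dN values at 2365 of the loci that fell and 2203 of those that rose. Calling selects for such separation and the share over all tested loci is not given, so these counts add no evidence for the calls. The paired fit bears on these counts: without the replicate block, 1473 loci fell and 991 rose.

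**Figure D1:**
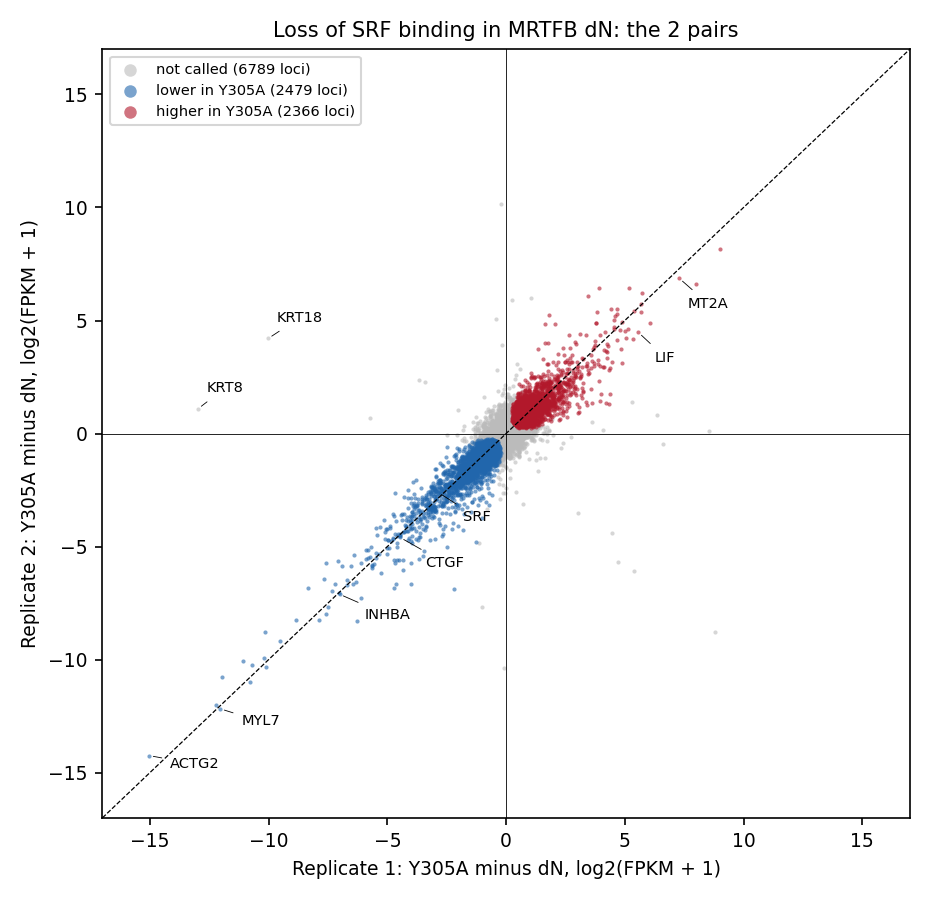
Difference between MRTFB dN Y305A and MRTFB dN in the first pair of libraries (horizontal axis) and in the second pair (vertical axis), both as differences of log2(FPKM + 1), for the 11634 tested loci, coloured by call. All 2479 loci that fell and all 2366 that rose have the same sign in both pairs. Calling selects for a shared sign, since the tested difference is the mean of both pairs. The share over all tested loci is not given, so these counts add no evidence for the calls. KRT8 and KRT18 lie far off the diagonal because they are listed at 0 in Y305A replicate 1.

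The transgene transcript was present in both groups. MKL2, the gene of MRTFB, was at 299.5 and 165 FPKM with MRTFB dN and at 404 and 294 FPKM with Y305A, against 3.06 to 6.60 FPKM in the 4 vector libraries. Both groups were thus above all vector libraries, and they overlapped, since MRTFB dN replicate 1 was above Y305A replicate 2. The log2 difference of 0.63 ± 0.15 (adjusted p = 0.0161) was called, but the call was lost without the replicate block and when any of 3 of the 4 libraries was left out (Y305A replicate 2, MRTFB dN replicate 1 or MRTFB dN replicate 2). The part of this difference in the changes described next was not tested. The summed FPKM does not separate transgene from endogenous transcripts.

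Among the genes of the factors themselves, SRF fell. It was at 62.5 and 51.1 FPKM with MRTFB dN and at 7.70 and 7.62 FPKM with Y305A, and the vector libraries ranged from 3.13 to 16.4 FPKM. Both Y305A values therefore lay inside the vector range and both MRTFB dN values above it. The difference was -2.73 ± 0.13 (adjusted p = 3.44e-05), a 6.64-fold lower FPKM + 1. TEAD1, a DNA-binding partner of YAP, was at 26.1 and 23.5 FPKM against 12.3 and 6.11 FPKM, a difference of -1.41 ± 0.21 (adjusted p = 0.00311). ELK1, a ternary complex factor that competes with MRTF for SRF, rose by 1.51 ± 0.15 (adjusted p = 0.00114), from 5.63 and 4.97 FPKM to 17.4 and 16.4 FPKM. Of the 12 tested genes of this list 3 fell, 3 rose and 6 were not called, and the rises came down to 1 without either MRTFB dN library and without the replicate block. Falls and rises were 25% each, near the 21.3% and 20.3% of all loci. YAP1 was at 40.0 and 39.4 FPKM against 38.9 and 18.3 FPKM (adjusted p = 0.19), and TEAD2, TEAD3, TEAD4 and MKL1 were also not called. The muscle coactivator gene MYOCD was listed at 0 in all 4 libraries.

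Leaving out short RNAs, contractile actins and their partners were among the loci that fell furthest, and the promoters of the actin genes and of SRF are shown because the CArG box is the element through which SRF acts. The sequences are the 250 bases before the RefSeq start site of ACTG2 (chr2:73892758-73893007, plus strand), ACTA2 (chr10:88952774-88953023, minus strand), ACTC1 (chr15:34795550-34795799, minus strand) and SRF (chr6:43171019-43171268, plus strand) in GRCh38.p14. The deposited values were made on hg19, so these positions belong to the promoter table only. That table holds 2 promoters for ACTA2, 3 for ACTC1 and 2 for SRF, and 1 of each is shown. The boxes and distances given here hold for the start shown. Capitals mark CArG boxes, with 1 core base other than A or T allowed.
ACTG2: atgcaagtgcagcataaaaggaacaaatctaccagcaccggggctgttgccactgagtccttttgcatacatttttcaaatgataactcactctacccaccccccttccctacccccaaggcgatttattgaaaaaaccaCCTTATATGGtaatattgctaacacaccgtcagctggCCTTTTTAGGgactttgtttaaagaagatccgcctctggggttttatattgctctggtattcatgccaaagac
ACTA2: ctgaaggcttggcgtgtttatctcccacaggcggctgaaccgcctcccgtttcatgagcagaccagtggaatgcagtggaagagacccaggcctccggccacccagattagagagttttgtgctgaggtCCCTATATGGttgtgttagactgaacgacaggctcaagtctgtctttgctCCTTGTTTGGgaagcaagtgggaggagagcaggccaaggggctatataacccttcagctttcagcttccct
ACTC1: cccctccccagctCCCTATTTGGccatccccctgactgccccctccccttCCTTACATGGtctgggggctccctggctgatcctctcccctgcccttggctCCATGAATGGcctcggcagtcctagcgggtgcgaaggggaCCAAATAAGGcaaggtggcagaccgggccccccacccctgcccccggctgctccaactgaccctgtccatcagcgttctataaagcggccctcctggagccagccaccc
SRF: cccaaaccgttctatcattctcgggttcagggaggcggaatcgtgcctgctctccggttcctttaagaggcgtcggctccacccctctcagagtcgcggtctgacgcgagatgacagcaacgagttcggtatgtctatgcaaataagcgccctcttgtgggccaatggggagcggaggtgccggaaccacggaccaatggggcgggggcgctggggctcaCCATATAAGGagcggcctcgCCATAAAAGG
ACTG2 holds 2 strict CArG boxes, 110 and 73 bases before the start. SRF holds 2 as well, 30 and 10 bases before the start. ACTC1 holds 1 strict box at 109 bases and 3 boxes with 1 core deviation at 237, 200 and 149 bases. ACTA2 holds no strict box in this window and 2 with 1 deviation, at 121 and 71 bases. With 1 deviation allowed, a box was found in 9.96% of all tested genes matched to a promoter. That share was counted up to 50 bases after the start.

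ACTG2, the enteric smooth muscle actin with the paired boxes shown above, differed by -14.64 ± 0.245 (adjusted p = 1.08e-06). ACTA2, the vascular smooth muscle actin, was at 52274 and 30943 FPKM with MRTFB dN and at 12.2 and 16.5 FPKM with Y305A, a difference of -11.37 ± 0.42 (adjusted p = 1.51e-05). ACTC1, the cardiac actin, was at 1930.1 and 2176 FPKM against 0.0896 and 0.0705 FPKM, a difference of -10.89 ± 0.13 (adjusted p = 3.91e-07). For these 3 genes no library of a group came near the other group. The vector libraries ranged from 0.254 to 2.55 FPKM for ACTG2, from 4.26 to 8.18 FPKM for ACTA2 and from 0 to 0.0850 FPKM for ACTC1, so the Y305A cells kept slightly more ACTA2 than any vector library. In these bulk libraries, fewer cells with a transcript and less of it per cell cannot be told apart.

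The cytoplasmic actins fell less. ACTB was at 22741 and 13683 FPKM with MRTFB dN and at 5088 and 2822 FPKM with Y305A, a difference of -2.22 ± 0.19 (adjusted p = 0.000324), or 4.65-fold. ACTG1 fell from 10307 and 6801 FPKM to 882 and 638 FPKM, by 3.48 ± 0.16 on the log2 scale (adjusted p = 2.84e-05). Their groups did not overlap either. For ACTB, Y305A replicate 1 was still above the highest vector library (2828 FPKM) and replicate 2 just below it, and for ACTG1 both Y305A values lay inside the vector range of 204 to 2565 FPKM.

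Across the 41 tested of 42 listed MRTF/SRF targets, 33 fell, 2 rose and 6 were not called, and their median difference was -2.84 against 0.03 over all loci. The count of falls was 33 with each of the 4 libraries left out in turn. Besides the actins, the falls included the calponin-like gene TAGLN (a locus counted together with PAFAH1B2 and SIDT2), at 41587 and 22309 FPKM against 35.0 and 21.6 FPKM (difference -10.06 ± 0.18, adjusted p = 1.4e-06). They also included the actin crosslinker gene FLNA, from 3474 and 2408 FPKM to 427 and 349 FPKM (-2.90 ± 0.18, adjusted p = 0.000206), and the focal adhesion gene VCL, from 464 and 481 FPKM to 99.5 and 81.2 FPKM (-2.38 ± 0.14, adjusted p = 7.67e-05). None of these 3 had overlapping groups. At the mild end stood ZYX, a zyxin of adhesions and stress fibres, at -1.22 and CFL1, which severs actin filaments, at -1.01. Not all listed targets moved: JUNB (-0.04), SMTN, a smooth muscle cytoskeletal gene (0.01), MYH10, a non-muscle myosin chain (0.24), and CAPZA1, which caps filaments (0.33), were not called. TSPAN5 rose by 1.10 ± 0.18 (adjusted p = 0.0042). MICAL2, an enzyme that oxidises actin, was called higher (0.48) but lost the call with any of the 4 libraries left out.

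**Figure D2:**
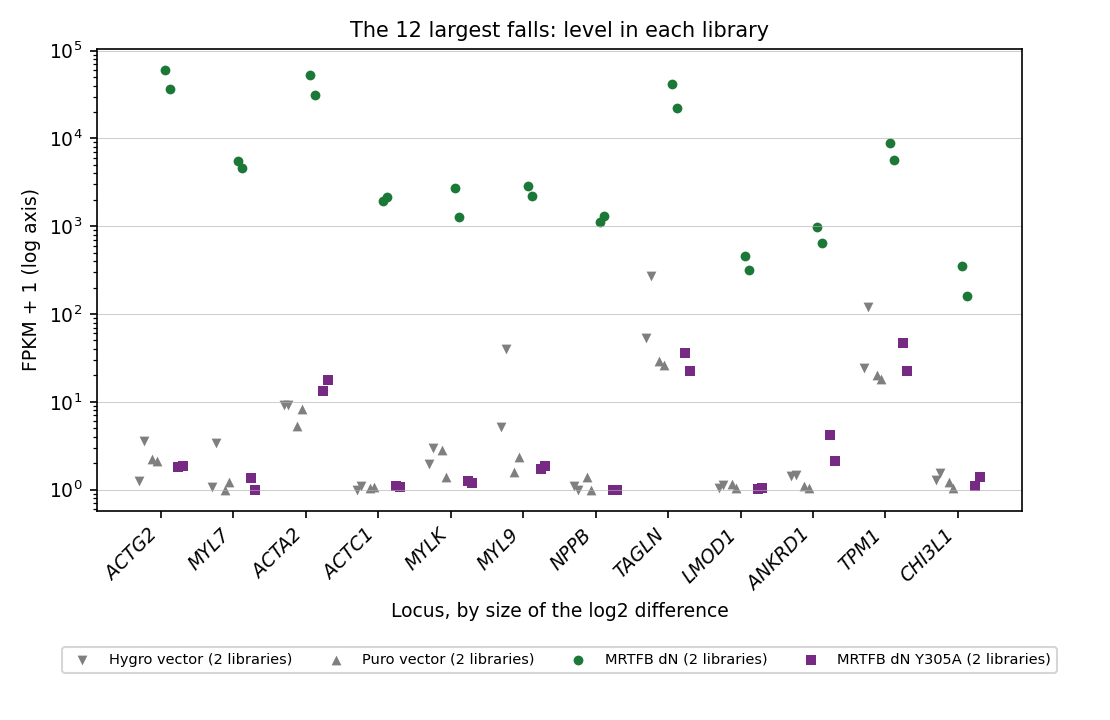
FPKM + 1 on a log axis of the 12 loci that fell furthest under the naming rule, for the vector libraries, MRTFB dN and MRTFB dN Y305A, 1 point per library. In each of the 12 the MRTFB dN points stand above 100 FPKM and the Y305A points stand with the vector libraries at the low end, apart from the slightly higher ANKRD1 and ACTA2.

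Myosin and tropomyosin genes followed the actins. MYLK, the kinase that switches on smooth muscle contraction, was at 2725 and 1281 FPKM with MRTFB dN and at 0.258 and 0.197 FPKM with Y305A (-10.57 ± 0.27, adjusted p = 4.26e-06). MYL9, the light chain that this kinase phosphorylates, was at 2835 and 2237 FPKM against 0.706 and 0.842 FPKM (-10.47 ± 0.16, adjusted p = 1.08e-06). Of 21 tested genes of myosin and its regulation, 15 fell, 1 rose and 5 were not called (median -1.14). The non-muscle heavy chain MYH9 fell from 970.2 and 866 FPKM to 278 and 177 FPKM, and RND3, which restrains ROCK, fell from 213 and 231 FPKM to 25.8 and 8.17 FPKM. RHOC, a small GTPase upstream of myosin, was the member that rose, from 185 and 143 FPKM to 535 and 329.9 FPKM (1.37 ± 0.17, adjusted p = 0.00151). RHOA was not called (-0.08).

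Of the 4 tropomyosins, which coat actin filaments, 3 fell. TPM1 went from 8948 and 5667 FPKM to 45.5 and 21.2 FPKM (-7.79 ± 0.17, adjusted p = 3.07e-06), TPM2 differed by -4.72 ± 0.26 and TPM4 by -3.29 ± 0.15. TPM3 was at 224 and 165 FPKM against 313 and 149 FPKM and was not called (0.17 ± 0.24).

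Of 13 tested smooth and cardiac muscle genes 11 fell and 2 were not called (median -4.64). MYL7, the atrial myosin light chain, was at 5603 and 4634 FPKM with MRTFB dN and at 0.338 FPKM and listed at 0 with Y305A, and NPPB, the brain natriuretic peptide gene, was at 1113 and 1304 FPKM and listed at 0 in both Y305A libraries. LMOD1, a nucleator of actin in smooth muscle, went from 461 and 319 FPKM to 0.0166 and 0.0392 FPKM (-8.55 ± 0.21, adjusted p = 3.9e-06). PLN, the regulator of the sarcoplasmic calcium pump, and KCNMB1, a potassium channel subunit, were at 28.1 and 25.9 FPKM and at 32.2 and 17.8 FPKM with MRTFB dN and listed at 0 in both Y305A libraries. Other muscle genes were near 0 in both groups and were not tested: MYH11 stood at 0.280 and 0.403 FPKM with MRTFB dN, CNN1 at 0.0571 and 0 FPKM, and DES was listed at 0 in all 4 libraries.

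Genes that build and turn over actin filaments fell in part. Of 37 tested genes of actin dynamics and crosslinking, 22 fell, 1 rose and 14 were not called (median -1.01), and without the replicate block 16 fell. PALLD, a scaffold of stress fibres, fell from 170.2 and 166 FPKM to 6.12 and 4.8 FPKM (-4.72 ± 0.17, adjusted p = 1.51e-05). GSN, the gelsolin that severs filaments, fell from 418 and 349 FPKM to 42.4 and 33.8 FPKM (-3.30 ± 0.14, adjusted p = 7.78e-05). The plastin PLS3 (-3.21) and the actin-sequestering thymosin TMSB4X (-2.95) fell as well. Subunits of the Arp2/3 complex, which starts branched filaments, did not share a direction: ACTR3 fell (-0.90), ARPC2 (-0.24) and ARPC5 (-0.41) were not called, and ARPC1B rose from 54.3 and 26.2 FPKM to 148 and 115 FPKM (1.76 ± 0.20, adjusted p = 0.00165). PFN1, the profilin that loads actin monomers, was not called (0.08).

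Adhesion receptors split into a larger group that fell and a smaller one that rose. Of 27 tested integrin and focal adhesion genes 17 fell, 8 rose and 2 were not called (median -1.22). The integrin chain ITGA5, part of the fibronectin receptor and counted with ZNF385A, fell from 5547 and 5393 FPKM to 163 and 215 FPKM (-4.86 ± 0.21, adjusted p = 2.58e-05). ITGA1, a collagen receptor chain counted with PELO, fell from 578 and 579 FPKM to 20.1 and 22.4 FPKM (-4.71 ± 0.13, adjusted p = 6.31e-06), and FERMT2, a kindlin that activates integrins, fell from 139 and 135 FPKM to 3.65 and 3.08 FPKM. Chains of laminin receptors did not share a direction. ITGB4 went from 69.9 and 90.7 FPKM to 567 and 705 FPKM (2.97 ± 0.15, adjusted p = 4.59e-05) and ITGA3, counted with PDK2, from 171 and 134 FPKM to 1069.6 and 986 FPKM (2.76 ± 0.22, adjusted p = 0.000239). ITGA6, the partner of ITGB4, fell from 272 and 192 FPKM to 140.0 and 61.2 FPKM (-1.29 ± 0.18, adjusted p = 0.00219). The count of 8 rises was 4 without MRTFB dN replicate 2, 5 without either Y305A library, and 4 without the replicate block.

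Most matrix genes fell: of 26 tested, 20 fell, 1 rose and 5 were not called (median -1.53). FN1, fibronectin, was at 771 and 1713 FPKM with MRTFB dN and at 10.1 and 9.91 FPKM with Y305A (-6.71 ± 0.32, adjusted p = 3.67e-05). COL8A1, a short-chain collagen counted with MIR548G, fell from 2180.2 and 2284 FPKM to 9.72 and 25.1 FPKM (-7.06 ± 0.37), and TNC, tenascin-C, from 234 and 288 FPKM to 3.70 and 4.02 FPKM (-5.75 ± 0.14). The basement membrane chains COL4A1 (-4.05) and COL4A2 (-2.52) fell together. The laminin chains LAMA3 (-0.09) and LAMB3 (0.46) were not called. LOXL2, a collagen crosslinker, rose by 1.79 ± 0.17 (adjusted p = 0.00107), from 9.55 and 21.5 FPKM to 41.9 and 65.2 FPKM.

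Both plasminogen activator genes and the urokinase receptor gene rose. PLAU, urokinase, was at 7.68 and 13.6 FPKM with MRTFB dN and at 444 and 763 FPKM with Y305A (5.70 ± 0.19, adjusted p = 1.17e-05), and the vector libraries reached 65.4 FPKM at most. PLAT, the tissue activator, rose from 0.731 and 0.989 FPKM to 22.2 and 32.7 FPKM (3.91 ± 0.28), and PLAUR, the urokinase receptor, from 35.1 and 41.2 FPKM to 287 and 164 FPKM (2.48 ± 0.24). For PLAU, both Y305A libraries lay above all vector libraries, while those of PLAT lay within the vector range of 2.96 to 38.3 FPKM. Of the 10 tested protease and plasminogen genes 3 fell, 3 rose and 4 were not called. The falls included the proteases ADAMTS1, from 133 and 151 FPKM to 0.280 and 0.464 FPKM, and ADAM19 (-4.50).

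Reported YAP/TEAD targets fell in part. Of 36 tested of 38 listed, 18 fell, 5 rose and 13 were not called (median -0.90). The promoters of CTGF, named CCN2 in the promoter table (chr6:131951373-131951622, minus strand), and of ANKRD1 (chr10:90921088-90921337, minus strand) are shown because TEAD factors bind MCAT elements there. Capitals mark the MCAT motif CATTCC on either strand, here as its reverse complement, in the 250 bases before the start.
CTGF: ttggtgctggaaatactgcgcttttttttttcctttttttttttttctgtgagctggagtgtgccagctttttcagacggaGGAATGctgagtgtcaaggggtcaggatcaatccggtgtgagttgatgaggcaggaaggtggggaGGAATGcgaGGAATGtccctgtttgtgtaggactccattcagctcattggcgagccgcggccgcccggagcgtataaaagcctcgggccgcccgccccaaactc
ANKRD1: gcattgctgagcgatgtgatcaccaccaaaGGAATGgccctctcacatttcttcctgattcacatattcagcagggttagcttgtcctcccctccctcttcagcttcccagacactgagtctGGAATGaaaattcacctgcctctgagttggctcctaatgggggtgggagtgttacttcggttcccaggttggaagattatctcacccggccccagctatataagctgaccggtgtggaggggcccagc
CTGF holds 3 matches, 169, 104 and 95 bases before the start, and ANKRD1 holds 2, at 220 and 128 bases.

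CTGF, a secreted matricellular protein, was at 4712 and 4472 FPKM with MRTFB dN, at 213 and 184 FPKM with Y305A and at 1.12 to 6.65 FPKM with the vectors. The Y305A cells thus kept far more CTGF than any vector library, although the difference from MRTFB dN was -4.53 ± 0.15 (adjusted p = 1.04e-05), or 23.1-fold. CYR61, its relative, was at 2760.0 and 2491 FPKM against 929 and 655 FPKM (-1.75 ± 0.17, adjusted p = 0.000558), and the vector libraries reached 35.1 FPKM at most. ANKRD1, a nuclear cofactor of muscle, went from 982 and 639 FPKM to 3.20 and 1.11 FPKM (-8.06 ± 0.24, adjusted p = 6.98e-06), near the vector range of 0.0340 to 0.457 FPKM but above it. All 3 genes are often used as readouts of YAP. YAP 5SA had 74.1 and 37.0 FPKM of CTGF and 478 and 266 FPKM of CYR61.

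Other targets on the same list ended at different levels. INHBA, an activin subunit, fell from 145 and 159.8 FPKM to 0.128 and 0.165 FPKM (-7.06 ± 0.13, adjusted p = 1.4e-06), under all vector libraries (0.933 to 7.30 FPKM). THBS1, a thrombospondin of the matrix, fell from 269.8 and 396 FPKM to 23.6 and 9.87 FPKM, and EDN1, the endothelin peptide, from 434 and 477 FPKM to 25.8 and 8.07 FPKM, both inside the range of the vector libraries. The angiomotin gene AMOTL2, a feedback target of YAP, was at 51.8 and 41.9 FPKM against 60.1 and 35.5 FPKM (-0.01 ± 0.15, adjusted p = 0.967), with both groups above the vectors (7.89 to 28 FPKM). LATS2 (-0.42) and PTPN14 (0.04) were not called. AMOTL1 rose by 1.04 ± 0.15 and FJX1 by 1.40 ± 0.19. The 5 rises came down to 2 without MRTFB dN replicate 1 and to 3 without Y305A replicate 1. The Hippo pathway list, of kinases and adaptors upstream of YAP, had 1 fall and 2 rises among 20 tested genes, against 41.6% of all loci that changed. The rises were AMOTL1 and WWC1, a scaffold that activates LATS kinases (1.60 ± 0.12, adjusted p = 0.000194).

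SRF also works with ternary complex factors on growth-factor genes. Of 14 such targets tested, 3 fell, 1 rose and 10 were not called (median -0.24). The falls were 21.4% of the list against 21.3% of all loci, and the rises 7.14% against 20.3%. DUSP5, a nuclear ERK phosphatase, fell from 101 and 79.8 FPKM to 5.75 and 5.86 FPKM (-3.74 ± 0.14, adjusted p = 1.61e-05), and CYR61 is also on this list. EGR1, a classical early response gene, was at 4.76 and 4.64 FPKM against 2.57 and 9.44 FPKM, so its groups overlapped and it was not called (0.10 ± 0.61). FOS, at 3.37 and 7.73 FPKM against 1.29 and 4.31 FPKM, was called lower at an adjusted p of 0.0488 and lost the call with any of the 4 libraries left out.

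Ligands of the TGF-beta family fell with their feedback genes. Of 19 tested genes, 14 fell, 2 rose and 3 were not called (median -2.14). BMP2, a bone morphogenetic protein, was at 520.1 and 361 FPKM against 4.01 and 3.03 FPKM (-6.59 ± 0.18, adjusted p = 6.02e-06). TGFB2, counted with TGFB2-OT1, fell from 54.6 and 53.2 FPKM to 0.229 and 0.191 FPKM, below all vector libraries. The inhibitory SMAD7 (-2.73), SMAD6 (-1.64), PMEPA1 (-1.35) and the pseudoreceptor BAMBI (-3.13) fell. The receptor gene TGFBR1 fell (-2.14) while TGFBR2 rose from 33.8 and 35.1 FPKM to 98.7 and 84.3 FPKM (1.38 ± 0.17, adjusted p = 0.00138).

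Among 9 tested mesenchymal genes 5 fell, 2 rose and 2 were not called. VIM, vimentin, was at 461 and 584 FPKM against 11.1 and 7.18 FPKM (-5.70 ± 0.56, adjusted p = 0.000518), CDH2, N-cadherin, fell from 30.5 and 25.4 FPKM to 9.25 and 7.74 FPKM, and SNAI2, the repressor Slug, from 5.18 and 5.54 FPKM to 0.464 and 0.817 FPKM. SNAI2 in the Y305A libraries lay under all vector libraries (3.63 to 12.5 FPKM), while CDH2 stayed above them (0.492 to 3.06 FPKM). The S100A4 locus, which also covers S100A2 and S100A3, rose from 198 and 182 FPKM to 4594 and 4808 FPKM (4.62 ± 0.26), and its values cannot be divided among the 3 genes.

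Of 10 tested genes of the IGF system 8 fell, 1 rose and 1 was not called (median -1.80): IGF1 was at 50.5 and 31.9 FPKM with MRTFB dN and listed at 0 in both Y305A libraries, and its receptor gene IGF1R fell from 22.2 and 34.1 FPKM to 4.68 and 7.41 FPKM (-2.04 ± 0.12, adjusted p = 9.05e-05). In the EGF family 5 of 10 fell and 1 rose (median -0.69), and 3 fell without the replicate block. The ligand EGF went from 24.2 and 26.0 FPKM to 0.122 and 0.199 FPKM (-4.49 ± 0.14, adjusted p = 7.52e-06) and the receptor inhibitor ERRFI1 from 117 and 122 FPKM to 17.7 and 12.7 FPKM, while the receptor EGFR rose from 13.6 and 16.6 FPKM to 38.3 and 40.2 FPKM (1.33 ± 0.15, adjusted p = 0.00192). In the Notch and WNT list 12 of 20 fell and 1 rose (median -0.71), led by the Notch ligand JAG1, from 94.8 and 79.2 FPKM to 6.04 and 7.84 FPKM (-3.47 ± 0.19, adjusted p = 5.81e-05). The 12 falls came down to 5 without Y305A replicate 2 and to 6 without MRTFB dN replicate 1 or 2.

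The glycolysis and hypoxia list had 14 falls and 4 rises among 28 genes (median -0.55). The 4 rises came down to 2 without Y305A replicate 2 or either MRTFB dN library, and to 1 without the replicate block. BNIP3, a mitophagy receptor, fell from 189.6 and 70.3 FPKM to 18.8 and 8.66 FPKM (-3.07 ± 0.22, adjusted p = 0.000157), and ADM, the vasoactive peptide adrenomedullin, from 183 and 218 FPKM to 35.3 and 38.7 FPKM (-2.40 ± 0.22). PGK1, an enzyme of lower glycolysis, fell by 0.97 ± 0.15, while LDHA (-0.02), ALDOA (0.23) and ENO1 (0.41) were not called. DDIT4, an inhibitor of mTORC1, rose by 1.57 ± 0.22.

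**Figure D3:**
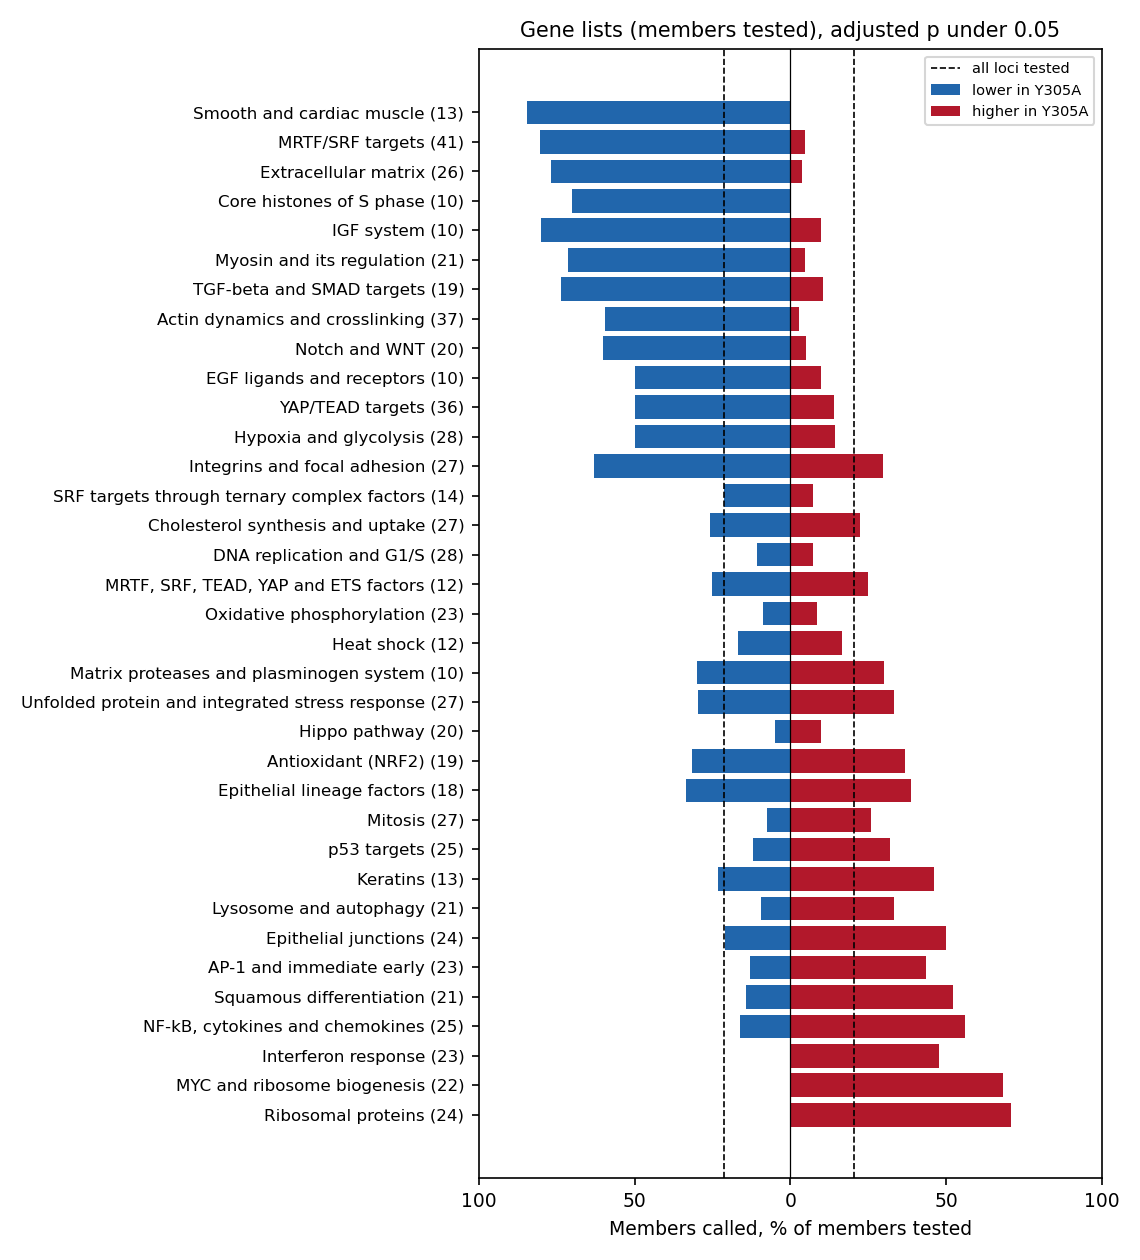
Share of tested members (percent) that fell, drawn to the left, and rose, drawn to the right, in each gene list with at least 10 tested members. The dashed lines give the shares over all tested loci, 21.3% lower and 20.3% higher, and the MRTF/SRF list reaches 80.5% lower.

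Leaving out short RNAs, the 2 loci that rose furthest were metallothioneins, small proteins that bind zinc and copper. MT2A was at 47.5 and 138 FPKM with MRTFB dN and at 7622 and 16179 FPKM with Y305A (7.08 ± 0.32, adjusted p = 2.89e-05), or 135-fold. MT1E was at 5.23 and 20.2 FPKM against 1569 and 2099 FPKM (7.30 ± 0.32, adjusted p = 2.63e-05). All 4 tested of the 9 listed metallothioneins rose, MT1X by 3.77 and MT1F by 2.49, and 3 rose without Y305A replicate 2 or either MRTFB dN library. The vector libraries stood between 1285 and 10521 FPKM for MT2A and between 158 and 1288 FPKM for MT1E, so it was the MRTFB dN libraries that lay under the vectors. Both Y305A values of MT1E were above them, as was 1 of the 2 values of MT2A.

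**Figure D4:**
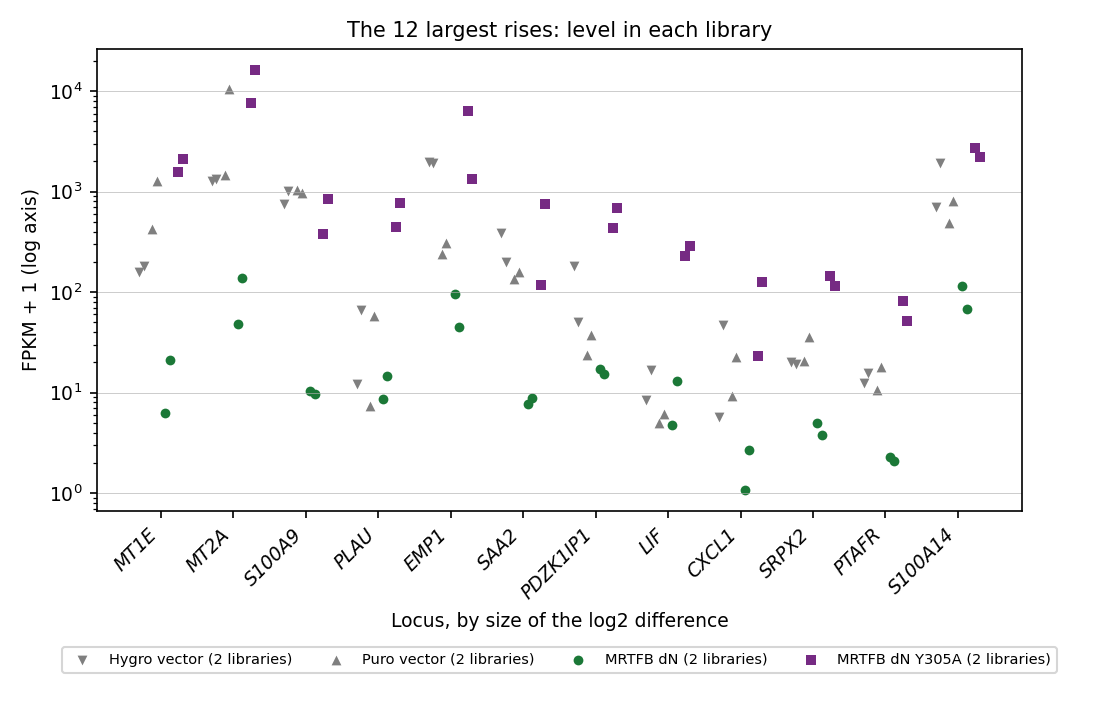
FPKM + 1 on a log axis of the 12 loci that rose furthest under the naming rule, for the vector libraries, MRTFB dN and MRTFB dN Y305A, 1 point per library. The Y305A points lie above the MRTFB dN points in all 12, and for MT2A and S100A9 the vector libraries lie with or near the Y305A points. The ranges of the vector and Y305A points also overlap for EMP1, CXCL1 and the SAA2 locus.

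S100A9, which encodes a calprotectin subunit of stressed epithelia, was at 9.48 and 8.65 FPKM for MRTFB dN, 381 and 841 FPKM for Y305A and 753 to 1050.5 FPKM for the vectors (5.82 ± 0.36, adjusted p = 9.79e-05). S100A14, its epithelial relative, rose from 114 and 67.1 FPKM to 2720.2 and 2221 FPKM (4.8 ± 0.15, adjusted p = 9.36e-06). LCN2, a secreted iron-siderophore carrier, rose from 13.5 and 10.9 FPKM to 159 and 806 FPKM (4.77 ± 0.71). Among 21 tested genes of squamous differentiation 11 rose, 3 fell and 7 were not called (median 0.92), and the 11 rises came down to 6 without MRTFB dN replicate 1, to 7 without Y305A replicate 2 or MRTFB dN replicate 2 and to 5 without the replicate block. The 3 falls came down to 1 without either second replicate and to 0 without the block. IVL, the envelope protein involucrin, rose from 6.22 and 3.40 FPKM to 33.2 and 12.1 FPKM (1.91 ± 0.25). The proline-rich SPRR1B (-0.45) and the kallikreins KLK7 (-0.51) and KLK10 (-0.82) were not called.

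Keratins, the intermediate filaments of epithelia, went both ways. KRT81, a hair-type keratin, rose from 1488 and 618 FPKM to 10157 and 6821 FPKM (3.12 ± 0.23, adjusted p = 0.000171), and the basal keratin KRT5 from 1085 and 874 FPKM to 4364 and 2316 FPKM (1.71 ± 0.23, adjusted p = 0.00207). KRT15, a basal keratin counted with MIR6510, rose from 24.3 and 3.06 FPKM to 586 and 99.6 FPKM (4.58 ± 0.13). KRT17, a keratin of wounded and basal epithelium, fell from 43206 and 22205 FPKM to 6700.1 and 955 FPKM (-3.61 ± 0.47, adjusted p = 0.00168). The calls of KRT15 and KRT17 rest on the pairing and were lost without the replicate block. Of 13 tested keratins 6 rose, 3 fell and 4 were not called, and 1 fell without Y305A replicate 2 or MRTFB dN replicate 2. KRT8 was at 8041 and 5877 FPKM against 0 and 12554 FPKM, and KRT18, its partner, at 1034 and 898 FPKM against 0 and 16608 FPKM. With the zero of 1 library, neither gene gives a direction.

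Junction genes rose more often than they fell: of 24 tested, 12 rose, 5 fell and 7 were not called (median 0.64). CLDN4, a tight junction claudin, rose from 125 and 91.2 FPKM to 2220.0 and 714 FPKM (3.55 ± 0.30, adjusted p = 0.000632), CLDN7 from 257 and 178 FPKM to 1363 and 879 FPKM (2.35 ± 0.18) and the gap junction gene GJB5 from 19.1 and 19.4 FPKM to 174 and 112 FPKM (2.80 ± 0.18). The desmosomal genes DSP (-1.82), DSC3 (-1.88), DSC2 (-1.59) and PKP2 (-1.99) fell, as did the gap junction gene GJA1 (-1.01), and the plakophilin PKP3 rose (1.21). CDH1, E-cadherin, was at 312 and 250.2 FPKM against 309 and 162 FPKM and was not called. Among 18 epithelial lineage factors 7 rose and 6 fell. ELF3, an epithelial ETS factor, rose from 15.2 and 12.4 FPKM to 176 and 82.3 FPKM (3.05 ± 0.20, adjusted p = 0.000108) and its relative EHF from 1.58 and 1.48 FPKM to 11.6 and 10.2 FPKM (2.23 ± 0.14, adjusted p = 0.000104). The 6 falls came down to 2 when Y305A replicate 2, MRTFB dN replicate 1 or MRTFB dN replicate 2 was left out, and to 1 without the replicate block. The 7 rises came down to 4 without Y305A replicate 1, MRTFB dN replicate 1 or the replicate block.

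The promoters of EMP1 (chr12:13196476-13196725, plus strand) and CXCL8 (chr4:73740319-73740568, plus strand) are shown for the rising side. Capitals mark the AP-1 motif TGANTCA, which FOS and JUN proteins bind.
EMP1: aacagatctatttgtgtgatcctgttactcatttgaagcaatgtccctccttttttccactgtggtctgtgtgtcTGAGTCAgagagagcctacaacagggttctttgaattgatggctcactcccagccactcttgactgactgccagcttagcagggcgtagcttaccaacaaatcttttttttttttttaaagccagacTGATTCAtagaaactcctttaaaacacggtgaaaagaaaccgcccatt
CXCL8: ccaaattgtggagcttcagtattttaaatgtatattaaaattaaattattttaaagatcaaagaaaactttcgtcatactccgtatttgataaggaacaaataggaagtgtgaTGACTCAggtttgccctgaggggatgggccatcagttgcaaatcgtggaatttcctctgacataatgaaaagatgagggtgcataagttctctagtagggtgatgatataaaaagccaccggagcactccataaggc
EMP1 holds matches 175 and 48 bases before the start, and CXCL8 holds 1 at 137 bases.

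EMP1, an epithelial membrane protein, was at 95.4 and 44.5 FPKM with MRTFB dN and at 6358 and 1341 FPKM with Y305A (5.46 ± 0.29, adjusted p = 5.04e-05). CXCL8, the neutrophil attractant IL-8, was at 0.814 and 1.41 FPKM against 72.9 and 42.7 FPKM (4.77 ± 0.35, adjusted p = 0.000174). LIF, a cytokine of the IL-6 family, was at 3.80 and 12 FPKM against 227 and 288 FPKM (5.02 ± 0.25, adjusted p = 4.05e-05). In each of the 3 both Y305A values lay above both MRTFB dN values, and for LIF both also lay above the vector range of 4.03 to 15.8 FPKM. For EMP1 the vector libraries stood between 240 and 1990 FPKM. Both MRTFB dN values of EMP1 were under that range, Y305A replicate 1 was above it and Y305A replicate 2 inside it. For CXCL8 the vector libraries spread from 1.60 to 50.2 FPKM.

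Of 25 tested cytokine, chemokine and NF-kB target genes 14 rose, 4 fell and 7 were not called (median 1.67). CXCL1, another neutrophil attractant, was at 0.0853 and 1.71 FPKM against 22.3 and 124 FPKM (4.98 ± 0.56), and CCL20 at 0.529 and 3.54 FPKM against 20.4 and 186 FPKM (4.59 ± 0.46). Replicate 2 was the higher library in both groups for both chemokines. SAA1, an acute-phase protein, rose from 115 and 162 FPKM to 1582 and 4796 FPKM (4.32 ± 0.36). CSF3, a granulocyte growth factor, stood at 0.0642 and 2.02 FPKM against 1.20 and 191 FPKM and was not called (adjusted p = 0.0786). PTGS2, the inducible cyclooxygenase, fell from 27.5 and 34.9 FPKM to 2.32 and 1.68 FPKM (-3.42 ± 0.19, adjusted p = 7.08e-05), and TNFAIP3, a brake on NF-kB, from 26.7 and 34.4 FPKM to 2.16 and 5.85 FPKM (-2.75 ± 0.26).

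Interferon-response genes were higher on median (1.67 over 23 tested genes), and 11 rose, none fell and 12 were not called. The count was 3 without MRTFB dN replicate 1, 5 and 6 without Y305A replicate 1 or 2, 6 without MRTFB dN replicate 2 and 3 without the replicate block. IFIT3, a translation inhibitor induced by interferon, was at 11.8 and 2.54 FPKM with MRTFB dN and at 239.9 and 41.8 FPKM with Y305A (3.92 ± 0.72), with the first replicate higher in both groups. Its vector values were 142 and 2.62 FPKM with Hygro and 1.08 and 0.913 FPKM with Puro, so the level of this gene also differed between replicates of a vector. ISG20, an exonuclease, rose from 2.12 and 1.27 FPKM to 52.1 and 16.3 FPKM (3.51 ± 0.34, adjusted p = 0.000497), and IRF1, the factor itself, from 4.46 and 4.75 FPKM to 31.8 and 25.3 FPKM (2.39 ± 0.16). The part of this spread between replicates in the result was not tested.

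In the list of AP-1 and early response genes 10 of 23 rose, 3 fell and 10 were not called (median 0.44). ETV4, a PEA3 factor, went from 1.08 and 1.00 FPKM to 18.1 and 19.4 FPKM (3.27 ± 0.15, adjusted p = 3.28e-05), DUSP6, an ERK phosphatase, from 3.06 and 4.25 FPKM to 14.2 and 20.2 FPKM (1.96 ± 0.14) and FOSL1, an AP-1 subunit, from 3.29 and 2.72 FPKM to 11.6 and 17.9 FPKM (1.95 ± 0.25). MYC rose from 20.9 and 17.6 FPKM to 72.6 and 126 FPKM (2.26 ± 0.30, adjusted p = 0.00305), with Y305A inside the vector range of 63.9 to 138 FPKM. The 10 rises came down to 6 without Y305A replicate 1 or MRTFB dN replicate 1, and the 3 falls (FOS, FOSL2 and JUN) to 0 without Y305A replicate 2, without MRTFB dN replicate 2 or without the replicate block.

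Genes of ribosome production were higher by small amounts. Of 22 tested MYC and ribosome biogenesis genes 15 rose and none fell (median 0.75), and of 24 ribosomal protein genes 17 rose and none fell (median 0.76). These counts depended on single libraries and on the pairing. The 15 rises were 7 without Y305A replicate 2, without MRTFB dN replicate 2 or without the replicate block. The 17 were 6 without Y305A replicate 2, 4 without MRTFB dN replicate 2 and 3 without the replicate block. RPS19, of the small subunit, rose from 1069 and 999.8 FPKM to 2058 and 2247 FPKM (1.06 ± 0.15, adjusted p = 0.00218) and POLR1B, a subunit of RNA polymerase I, from 4.28 and 4.01 FPKM to 9.62 and 12.3 FPKM (1.21 ± 0.15, adjusted p = 0.00126). FPKM are scaled to library size, and the loci of ACTG2, ACTA2 and TAGLN took a larger share of the named FPKM outside short RNAs with MRTFB dN. After rescaling by the median of ratios, 17 ribosomal protein genes and 14 MYC and ribosome biogenesis genes rose. The part of the ACTG2, ACTA2 and TAGLN share in the result was not tested.

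Of 27 tested mitosis genes 7 rose, 2 fell and 18 were not called (median 0.45). The rises were 25.9% of the list against 20.3% of all loci, and the falls 7.41% against 21.3%. The 7 rises came down to 0 without Y305A replicate 2 or the replicate block, to 1 without MRTFB dN replicate 2 and to 3 without Y305A replicate 1. MKI67, a proliferation marker, was at 5.38 and 5.21 FPKM against 5.15 and 11.1 FPKM (adjusted p = 0.227). ANLN, which binds actin in the cleavage furrow, fell from 101 and 72.9 FPKM to 18.2 and 23.4 FPKM (-2.0 ± 0.23, adjusted p = 0.000937). Of 28 replication and G1/S genes 2 rose and 3 fell (median 0.12), and of 23 oxidative phosphorylation genes 2 rose and 2 fell (median 0.22). With single libraries left out, replication genes had 1 to 6 rises and 0 to 2 falls, and oxidative phosphorylation genes 0 to 4 rises and 1 to 2 falls. The most rises were found without MRTFB dN replicate 1 for replication and without Y305A replicate 1 for oxidative phosphorylation, and the fewest without either second replicate.

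Of 25 p53 target genes 8 rose, 3 fell and 14 were not called (median 0.22). SFN, the 14-3-3 sigma protein of squamous cells, rose from 183 and 126 FPKM to 1579 and 709 FPKM (2.79 ± 0.20, adjusted p = 0.000148) and GDF15, a stress cytokine, from 2.81 and 3.51 FPKM to 25.3 and 39.4 FPKM (2.97 ± 0.35). MDM2 (0.10), a direct p53 target, was not called, and CDKN1A, the cyclin-dependent kinase inhibitor p21, fell from 610.1 and 497 FPKM to 294 and 166 FPKM (-1.31 ± 0.18), a call lost without the replicate block. In the cholesterol list 7 genes fell and 6 rose of 27 (median 0.15), and the falls came down to 4 without MRTFB dN replicate 2 and to 2 without the replicate block. These shares, 25.9% and 22.2%, were near the 21.3% and 20.3% of all loci. The lipid genes FASN (1.75 ± 0.30), FDPS (2.04 ± 0.15) and FADS2 (2.41 ± 0.23) rose, while the feedback gene INSIG1 fell from 102 and 73.6 FPKM to 45 and 30.1 FPKM (-1.21 ± 0.13).

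The called loci were also set against the 4 vector libraries. Of the 2479 loci that fell, MRTFB dN lay above all 4 vector libraries at 1795, and Y305A had both values within the vector range at 1044, above it at 228 and below it at 386. Of the 2366 loci that rose, MRTFB dN lay below all vector libraries at 912, and Y305A had both values within the range at 1023, above it at 600 and below it at 74. PLAU, LIF and MT1E are among the loci above it, and INHBA and TGFB2 among those below. Puro vector replicate 1 stood apart, with 58.8% of its FPKM at unnamed loci, and its part in these ranges was not tested. Among the 119 loci that fell by 4 or more, MRTFB dN was above all vector libraries at 117, but a fall of that size selects loci with high MRTFB dN values. The same counts over all tested loci are not given, so those of this paragraph describe the called loci only.

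The loss of SRF binding was also measured without YAP binding, as MRTFB dN Y305A/dPY against MRTFB dN dPY, in 4 other libraries. These enter the main comparison through the shared estimate of the spread and not through its differences. There 2386 loci fell and 2255 rose. Of the 2479 loci that fell in the main comparison, 2450 (98.8%) had the same sign, 2012 were also called lower and none was called higher. Of the 2366 that rose, 2327 (98.4%) had the same sign, 1736 were also called higher and 1 was called lower. The median differences of these loci were -1.09 and 0.82. The same shares over all tested loci are not given, so these counts describe the called loci only. In the empty stretches lie 385 of the loci that fell and 272 of those that rose. At those loci MRTFB dN dPY was read from replicate 2 alone. Over the 10007 loci outside the empty stretches, Pearson's r of the differences was 0.913 and Spearman's rho 0.896, as a description across loci that share the replicate numbers and the estimate of the spread.

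**Figure D5:**
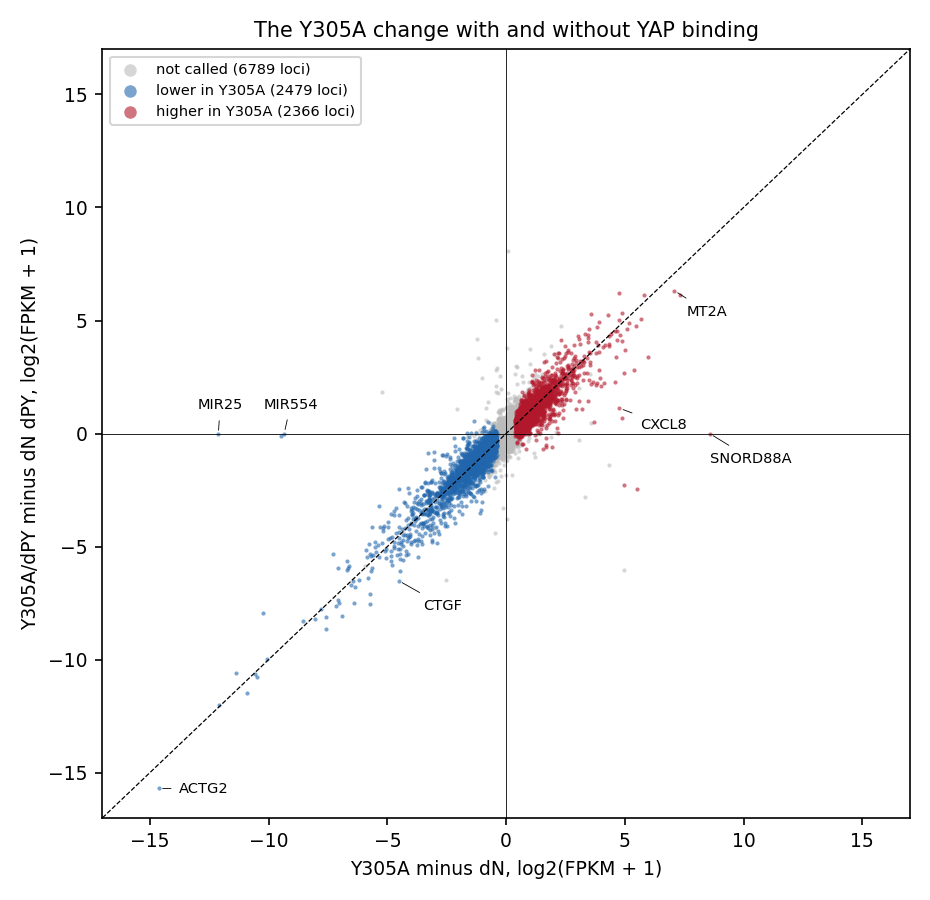
Log2 difference on loss of SRF binding in MRTFB dN (horizontal axis, Y305A minus MRTFB dN) and without YAP binding (vertical axis, Y305A/dPY minus dPY), 1 point per tested locus, with the line of equal values dashed. Most loci lie along the line, CTGF lies below it at -4.53 and -6.50, and CXCL8 lies below it at 4.77 and 1.13, while MIR25, MIR554 and SNORD88A lie at 0 on the vertical axis.

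The difference between the 2 comparisons was tested for each locus. It was called at 4 loci, 0.0344% of those tested, and 879 had an unadjusted p under 0.05. For CTGF, the Y305A/dPY libraries had 21.2 and 24.6 FPKM and those of dPY 2256 and 2078 FPKM, and the difference of 1.97 ± 0.21 had an adjusted p of 0.0757. CXCL8 was at 1.84 and 4.0 FPKM with Y305A/dPY and at 0.746 and 0.706 FPKM with dPY. The second rise was thus smaller on these values, but the difference of 3.64 ± 0.50 had an adjusted p of 0.123. ANKRD1 (-8.06 and -8.22), SRF (-2.73 and -2.88) and MT2A (7.08 and 6.33) had close values, with adjusted p-values of the difference of 0.962, 0.911 and 0.797.

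Motifs in the 250 bases before to 50 after the start were counted for 8648 tested genes matched to a promoter of the RefSeq table. A match on either strand is a description of letters. A strict CArG box was found in 1.78% of all of them, in 4.05% of the 1850 matched genes that fell, in 14.6% (12 of 82) of those that fell by 4 or more, in 1.17% of the 1703 that rose and in 1.60% of the whole table of 27305 promoters. The 12 genes include ACTG2, ACTC1, MYL7, MYLK and CHI3L1, a secreted chitinase-like protein that went from 354 and 159.9 FPKM to 0.0871 and 0.391 FPKM. With 1 core base other than A or T allowed, a CArG box was in 9.96% of all and in 13.6% of the genes that fell. It was in 26.8% (22 of 82) of the strongest falls, in 8.34% of the genes that rose and in 9.88% of the table. The MCAT motif was in 15.1% of all, in 17.8% of the genes that fell, in 16.0% of those that rose and in 16.7% of the table. It was in 37.8% (31 of 82) of the strongest falls. The AP-1 motif was in 7.33% of all, in 8.65% of the genes that fell, in 8.93% of those that rose and in 9.37% of the table. It was in 15.9% of the strongest falls and in 7 of the 17 matched genes that rose by 4 or more. Those 7 were CD14, CXCL8, LCN2, PTAFR, SRPX2, EMP1 and MT2A.

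Markers of other cell types were read in the same libraries. Of 9 markers of mammary epithelium, KRT5, CDH1 and EPCAM were present in all 4 libraries, the lowest value being 162 FPKM. TP63 stood between 0.545 and 1.93 FPKM and KRT19 between 0.463 and 6.50 FPKM. KRT14 (counted with KRT16), KRT17 and TP63 fell, KRT5, KRT19 and EPCAM rose, and CDH1, KRT8 and KRT18 were not called. Without the replicate block, 0 of the 9 fell and 2 rose. PTPRC, CD3E and MS4A1, which define leukocytes, were at or under 0.0376 FPKM, and of the 5 leukocyte markers CD14 and the CD68 locus, which also holds EIF4A1 and other genes, rose. CD14, a coreceptor for bacterial lipids, went from 1.31 and 4.01 FPKM to 30.6 and 149 FPKM (4.34 ± 0.42). The fibroblast genes PDGFRA, PDGFRB, DCN and LUM were at or under 0.388 FPKM, and COL3A1 fell from 1.13 and 3.76 FPKM to 0.0118 and 0.00930 FPKM. COL1A1 fell from 2.75 and 3.12 FPKM to 0.769 and 2.18 FPKM, a call lost without the replicate block. Of the 4 endothelial markers CDH5, at 2.77 and 2.78 FPKM against 8.30 and 4.90 FPKM, was tested and not called. The 4 markers of renal packaging lines were all at or under 0.561 FPKM.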

How the data were processed

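RNA-seq of 14 libraries in 7 groups of 2 was deposited by the authors as 1 table of FPKM values for 34071 loci, made with TopHat, Bowtie, Cufflinks and Cuffnorm on hg19, per the submitters' processing notes. Versions and library scaling are not given in the sources used here. A named locus was tested when 2 or more of the 4 compared libraries reached 1 FPKM, which left 11634 of 27543, and 931 of them carry the names of several genes.

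Values were taken as log2(FPKM + 1) and fitted with limma 3.58.1 in R 4.3.3, with group and replicate number as terms over the 8 MRTFB libraries and a mean-variance trend. P-values were adjusted by the Benjamini-Hochberg method with a threshold of 0.05. Same-numbered libraries deviated together from their group means (r between 0.38 and 0.77 for 6 pairs of groups, across 10007 loci), and the pairing rests on the replicate numbers of the labels. The 5257 loci of the empty stretches were set to missing in MRTFB dN dPY replicate 1. The fit was tested on simulated data. Relative depth, read from the lowest values, was 1 and 1.19 for MRTFB dN and 1.29 and 1.64 for Y305A. Promoters came from RefSeq on GRCh38.p14.

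The compared groups, members and gene lists were chosen with earlier results of these data known. Genes with values were named by a rule: the factors, the 12 largest changes in each direction at a mean of at least 3 FPKM with short RNAs left out, up to 5 called members per list and direction, and a fixed set of actin, YAP and epithelial genes. Other genes given as examples, among them members that were not called, were chosen after their values were seen. Alternatives changed the pseudocount, filter, scaling, libraries, trend and block. Some results are not reported here.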

Additional observations from a re-analysis of the deposited data

Results flagged for a closer look

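At 4 loci the change on loss of SRF binding differed between MRTFB dN and MRTFB dN dPY by limma's test of the difference itself (Benjamini-Hochberg over all tested loci). MIR554, a microRNA locus, was at 733 and 575 FPKM with MRTFB dN and listed at 0 in the other 12 libraries, a difference of -9.35 (adjusted p = 4.89e-05). MIR25, another microRNA locus, was at 4821 and 4100 FPKM with MRTFB dN, at 2958 FPKM in YAP 5SA replicate 1 and at 13566 FPKM in Puro vector replicate 2, and listed at 0 elsewhere, a difference of -12.08 (adjusted p = 0.000151). It lies in the stretch that is empty in MRTFB dN dPY replicate 1. SNORD88A, a small nucleolar RNA, was listed at 0 with MRTFB dN and at 513 and 282 FPKM with Y305A, and at 0 in the dPY and Y305A/dPY libraries, a difference of 8.57 (adjusted p = 0.000569). The sizes at these 3 loci depend on the pseudocount. JAKMIP1, a microtubule-associated gene, was at 1.03 and 1.21 FPKM with MRTFB dN and at 11.2 and 10.8 FPKM with dPY. It was listed at 0 in both Y305A libraries and stood at 0.0789 and 0 FPKM with Y305A/dPY, a difference of 2.45 (adjusted p = 0.0311).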

How the results depend on the processing

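None of the 262 named loci that were called reversed direction under the alternatives run. Against 2479 falls and 2366 rises, the fit with all 14 libraries and no replicate block called 1408 and 852, and the 8-library fit without the replicate block called 1473 and 991. Leaving out each of the 4 compared libraries in turn gave 1662 to 1817 falls and 1241 to 1487 rises, and leaving out MRTFB dN dPY replicate 1, an alternative chosen after seeing the data, gave 2330 and 2190. The number of loci whose change differed with YAP binding was 4, and 7 with all 14 libraries. Among MRTF/SRF targets the falls numbered 33, and 29 with the zeros of the empty stretches kept. Of 262 named loci that were called, 134 were called under every alternative and 191 with each of the 4 libraries left out. The cause of these losses was not tested, beyond fewer libraries leaving fewer degrees of freedom. With 2 libraries per group and no read counts, low FPKM values limit what can be told apart.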

Other observations

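Core histone genes of S phase, which supply chromatin during replication, fell in 7 of 10 tested members and rose in none (median -1.10). The falls came down to 4 without Y305A replicate 2 or MRTFB dN replicate 2 and to 3 without the replicate block. Genes of the unfolded protein and integrated stress response had 8 falls (29.6%, against 21.3% of all loci) and 9 rises (33.3%, against 20.3%) among 27. Their falls came down to 4 without MRTFB dN replicate 1, their rises to 5 without Y305A replicate 1 or MRTFB dN replicate 1, and both to 3 without the block. Genes of the antioxidant response had 6 falls and 7 rises among 19, with 4 rises without either second replicate and 3 without the block.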
